A study of Mus musculus with 10 samples.

Results

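The step from the R500 to the R1000 line, at which the H3K27me3 peak list shrank, was described from the 21888 distinct peaks of R500 and the 9595 of R1000, out of 74261 peaks in the lists of 5 lines. A peak of R500 that shared at least 1 bp with an R1000 peak was counted as kept, the others as lost, and an R1000 peak with no overlap in R500 as new. All 5 lines stem from a B-cell lymphoma line of strain C57BL/6J that carries the E{mu}-Myc transgene, whose immunoglobulin heavy chain enhancer drives Myc in B-lineage cells, and is Cdkn2a-/-. The parental line was untreated, and 4 resistant lines (R100, R500, R1000, R4000) were isolated from it under rising doses of mafosfamide, an alkylating form of cyclophosphamide that is active in culture. R500 was harvested on day 18 at 500 nM and R1000 on day 23 at 1000 nM, while R100 was taken on day 10 at 100 nM and R4000 on day 37 at 4000 nM. The cells used for chromatin immunoprecipitation (ChIP-seq) were grown without the drug. Each dose is represented by 1 line of 1 escalation, so that dose, time in culture and the history of the line cannot be told apart.

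The lists give chromosome, start and end only, with 1 list per line, so that the depth behind a peak and the height of its signal are unknown, and no difference between R500 and R1000 was tested. Percentages are given with 95% Wilson intervals, which cover counting of peaks or genes only. Whether a list pools replicates is not given in the sources used here. The R500 list holds every peak 2 times, as 43776 rows, as does the R100 list, whereas the lists of R1000, R4000 and the parental line hold each peak 1 time. This difference in how the lists were written coincides with the step described, and its part in the result was not tested.

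H3K27me3, trimethylation of lysine 27 of histone H3, is placed by Polycomb repressive complex 2 (PRC2), whose catalytic subunit is Ezh2, and is read by PRC1 through its Cbx subunits. It marks genes held silent, above all regulators of development such as the Hox clusters, and in differentiated cells it lies in broad domains over CpG-rich promoters.

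To show what the classes look like as DNA, the central 200 bases of the widest regions are printed from the + strand of NCBIM37 (mm9), in lower case with CpG dinucleotides in capitals. The 3 widest lost regions are followed by kept and new regions of the union of both lists. The kept region of rank 1 overlaps the pseudogene AY036118 at chr17:39979851-39985850, in a copy of the ribosomal RNA repeat, and is not shown. The kept region of rank 3, over Hoxa7, is not shown either, because its centre overlaps an untranslated region, and that over Sp9, of rank 4, is printed instead.
Lost, no gene annotated, chr12:114115576-114115775: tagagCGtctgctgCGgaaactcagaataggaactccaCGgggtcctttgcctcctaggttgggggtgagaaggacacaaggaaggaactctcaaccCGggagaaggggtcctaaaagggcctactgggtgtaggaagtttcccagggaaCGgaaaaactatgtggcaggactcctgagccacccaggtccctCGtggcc
Lost, Pax3, chr1:78189751-78189950: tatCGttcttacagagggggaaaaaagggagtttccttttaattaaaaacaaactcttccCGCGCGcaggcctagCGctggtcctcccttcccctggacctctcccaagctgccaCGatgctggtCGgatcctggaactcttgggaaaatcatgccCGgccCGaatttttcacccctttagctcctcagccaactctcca
Lost, Skor1, chr9:62993926-62994125: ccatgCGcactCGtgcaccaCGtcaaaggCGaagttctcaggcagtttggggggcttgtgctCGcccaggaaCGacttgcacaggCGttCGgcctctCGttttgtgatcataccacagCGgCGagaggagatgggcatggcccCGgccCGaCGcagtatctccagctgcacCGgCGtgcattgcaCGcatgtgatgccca
Kept, Hoxa11, chr6:52194801-52195000: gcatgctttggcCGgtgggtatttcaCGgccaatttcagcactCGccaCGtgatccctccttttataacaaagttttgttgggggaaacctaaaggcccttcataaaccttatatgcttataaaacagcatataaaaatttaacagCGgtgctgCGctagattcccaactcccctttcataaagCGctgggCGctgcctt
Kept, Sp9, chr2:73110401-73110600: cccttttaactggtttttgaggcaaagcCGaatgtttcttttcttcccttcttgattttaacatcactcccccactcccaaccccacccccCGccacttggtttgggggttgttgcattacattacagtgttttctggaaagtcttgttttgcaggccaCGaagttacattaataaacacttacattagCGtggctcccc
New, within Gm12446, chr4:46316626-46316825: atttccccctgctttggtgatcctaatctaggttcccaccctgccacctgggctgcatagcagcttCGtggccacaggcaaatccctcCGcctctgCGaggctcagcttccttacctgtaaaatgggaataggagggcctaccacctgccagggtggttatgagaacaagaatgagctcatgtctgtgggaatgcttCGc
New, no gene annotated, chr7:56932426-56932625: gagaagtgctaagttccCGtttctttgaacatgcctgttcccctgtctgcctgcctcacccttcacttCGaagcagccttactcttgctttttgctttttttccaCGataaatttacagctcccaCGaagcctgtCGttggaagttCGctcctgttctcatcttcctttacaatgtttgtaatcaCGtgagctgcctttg
New, Ovol1, chr19:5558826-5559025: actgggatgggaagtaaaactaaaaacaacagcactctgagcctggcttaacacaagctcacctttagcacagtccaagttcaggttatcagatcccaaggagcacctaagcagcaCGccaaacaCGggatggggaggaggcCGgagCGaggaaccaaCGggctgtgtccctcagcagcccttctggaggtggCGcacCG

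The number of CpGs did not separate the classes in the windows printed. The kept windows of rank 1 and rank 3, which are not printed, held 25 and 17 CpGs. The window in Skor1, which lies in coding sequence, held 17 CpGs in 200 bases, and that in Pax3, which is intronic, held 9. The window at Hoxa11, in an exon of a non-coding transcript of Hoxa11 or its antisense gene Hoxa11as, held 8 CpGs, and the intronic one in Sp9 held 4. The 3 new windows held 4, 7 and 7 CpGs, and those in Gm12446, a non-coding gene, and Ovol1 are intronic.

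The widest lost region, chr12:114114901-114116450, was covered over 1550 bp in R500 as in R100, over 650 bp in parental cells and over 50 bp in R4000, and it overlapped no annotated gene. The second lies in Pax3, a paired homeobox gene of neural crest and muscle, at chr1:78189151-78190550 and between 3 and 5 kb downstream of the transcription start site (TSS). Coverage here was 1400 bp for R500 and 0 for R1000, with 350, 800 and 100 bp for the parental, R100 and R4000 lines. The third lies in Skor1, which encodes a transcriptional corepressor, at chr9:62993351-62994700. Its coverage was 1350 bp for R500 and 0 for R1000, and the parental, R100 and R4000 lines had 0, 1100 and 550 bp. All 3 regions, which were chosen for their 0 bp in R1000, held some coverage in the R4000 list. Of all lost peaks 5.72% overlapped a peak in R4000. The 3 widest kept regions covered 6000 bp on chromosome 17, 4900 bp over Hoxa11 and 4750 bp over Hoxa7 in R500, of which 5950, 3250 and 3500 bp were covered in R1000. The widest new regions were short by comparison. Those at chr4:46316451-46317000, 39481 bp from the TSS of Foxe1, and chr7:56932251-56932800, 40032 bp from that of Dbx1, each covered 550 bp in R1000 and were empty in R500, R4000 and parental cells. R100 covered 300 and 400 bp of these regions, so that neither was particular to R1000. The third lies in the first 2 kb of Ovol1, at chr19:5558701-5559150, with 450 bp in R1000 and 0 in R500, beside 400 bp in R100 and 100 bp in R4000.

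The R1000 list held 0.438 times as many peaks as the R500 list and 0.356 times its covered length, 1.613 Mb against 4.533 Mb. The mean width was 168.1 bp in R1000 and 207.1 bp in R500, and the median was 100 bp in both. Wide peaks were reduced more than peaks as a whole, from 2127 to 625 at 500 bp or wider, which is 0.294 times as many. The other lists were of 10778 peaks (parental), 25180 peaks (R100) and 6820 peaks (R4000). Of the R500 peaks, 4203 were kept (19.2%, 18.7 to 19.7%) and 17685 were lost (80.8%). Of the R1000 peaks, 4470 were new (46.6%, 45.6 to 47.6%). Counted in base pairs, 1081050 bp were covered in both lists, which is 23.9% of the R500 length and 67.0% of the R1000 length. Lost peaks accounted for 50.3% of the R500 length, and a further 25.9% lay inside kept peaks but outside the R1000 coverage. The shorter covered length thus came both from whole peaks and from the narrowing of kept ones.

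Whether a peak was kept went with its width. Only 2.48% of the R500 peaks of 50 bp overlapped an R1000 peak (166 of 6687), against 17.8% of those of 150 to 200 bp, 74.3% of those of 500 to 950 bp and 95.6% of those of 1000 bp or wider (615 of 643, 93.8 to 97.0%). A wide peak has more bases with which to meet another list, so that part of this gradient follows from the overlap rule itself. A stricter measure gave lower values, since only 698 of the 2127 R500 peaks of 500 bp or wider (32.8%) had 50% or more of their bases inside R1000 peaks. The new peaks were almost all narrow. Their share fell from 76.2% of the R1000 peaks of 50 bp (2476 of 3251) to 0.32% of those of 500 bp or wider (2 of 625) and to 0 of 115 at 1000 bp or wider, which allows up to 3.23%. Their median width was 50 bp, against 100 bp for lost and 400 bp for kept R500 peaks.

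**Figure D1:**
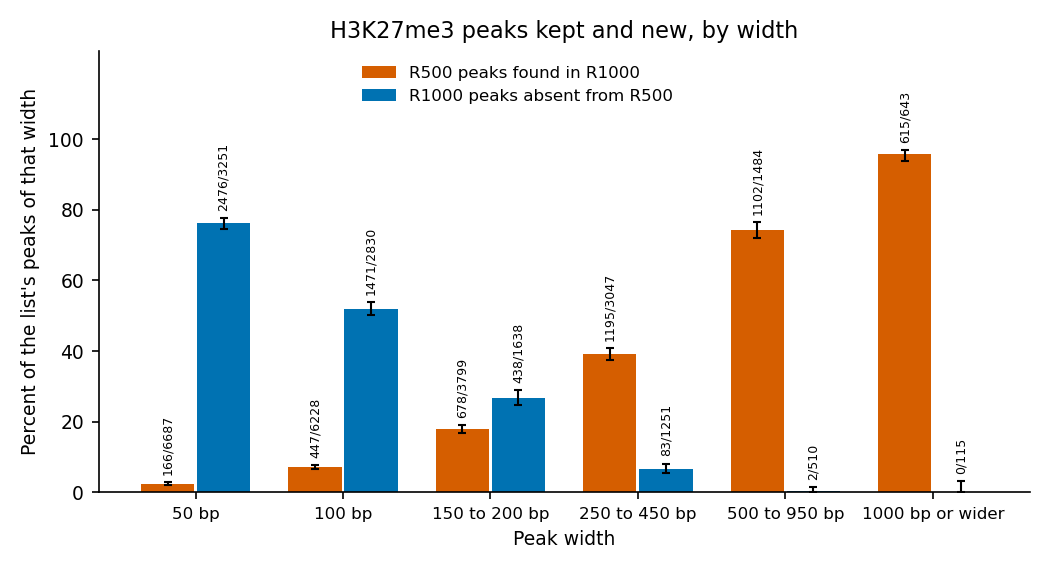
Percent of R500 peaks found in R1000 (orange) and of R1000 peaks absent from R500 (blue) by peak width, with the counts above the bars and 95% Wilson intervals as error bars. The kept share climbs from 2.48% at 50 bp to 95.6% at 1000 bp or wider, and the new share runs from 76.2% to 0.

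Most kept regions were covered over fewer bases in R1000, and the widest were split. In the union of both lists there were 4088 kept regions, of which 3126 (76.5%) had fewer covered bases in R1000, 394 the same number and 568 (13.9%) more. Their median coverage was 400 bp in R500 and 200 bp in R1000, with a median ratio of 0.535 and quartiles of 0.333 and 0.90. Of the 626 with at least 1000 bp in R500, 608 were covered less in R1000. These regions, like the wide R500 peaks that follow, were chosen by their length in R500. Part of the lower coverage and of the splitting can follow from that choice, which was not tested. Among the 615 kept R500 peaks of 1000 bp or wider, 444 (72.2%) held at least 2 separate R1000 peaks, and up to 8 were found in 1 peak. The share was 26.04% for kept peaks of 500 to 950 bp (287 of 1102) and 2.01% for those under 500 bp (50 of 2486), so that most kept peaks, 3422 of 4203, met a single R1000 peak. Around the Hoxa11 TSS 12 R500 peaks reached within 10 kb and summed to 19100 bp at full width, against 20 R1000 peaks of 10000 bp. The R500 sum includes a peak of 4600 bp from 9963 to 14562 bp downstream, most of which lay beyond 10 kb. No R1000 peak of this sum reached beyond 10 kb. Lost peaks lay a median of 4500 bp from the nearest R1000 peak, and 3679 of them (20.8%) within 500 bp. New peaks lay closer to the other list, a median of 600 bp from the nearest R500 peak, and 2147 of the 4470 (48.0%) within 500 bp. These gaps are not alike, since the R500 list holds 21888 peaks and the R1000 list 9595, and gaps to a longer list tend to be shorter for any peaks.

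Kept peaks were more often at a TSS. Of the 658 R500 peaks lying over an annotated TSS, 62.6% were kept (58.9 to 66.2%), against 25.3% of those up to 2 kb away, 11.2% of those 5 to 50 kb away and 9.34% of those farther. Within a width class the difference was smaller in percentage points. Among peaks of 500 to 950 bp the kept share was 77.8% within 2 kb of a TSS (732 of 941) and 67.2% over 5 kb away (229 of 341), and among peaks of 50 bp it was 4.42% and 1.55%. For peaks of 1000 bp or wider it was 96.3% and 93.3%, with intervals that overlapped. Of all kept peaks 63.2% lay within 2 kb of a TSS, of lost peaks 38.8% and of new peaks 41.9%. The profile over 22380 protein-coding genes was lower in R1000 at each of the 12 positions compared. It was highest at 300 bp downstream of the TSS in R500, where 5.55% of genes had a peak, and at 500 bp downstream in R1000, with 2.14%. The ratio of R1000 to R500 lay between 0.298 and 0.441, and was 0.382 at 2 kb upstream, 0.363 at the TSS, 0.398 at 500 bp and 0.358 at 2 kb downstream.

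**Figure D2:**
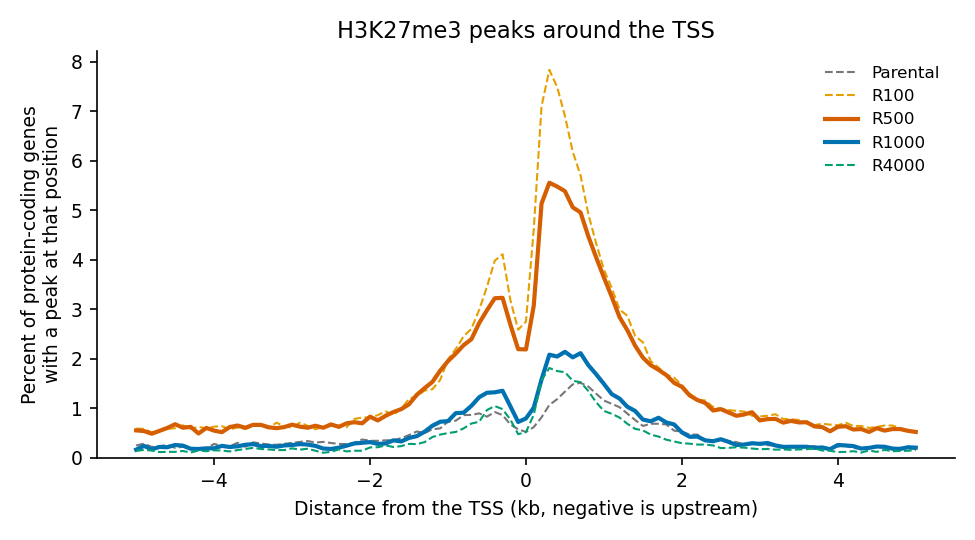
Percent of 22380 protein-coding genes with a peak at each distance from the TSS (kb, negative is upstream), for R500 and R1000 as solid lines and the parental line, R100 and R4000 as dashed lines. The highest values are 7.83% (R100), 5.55% (R500), 2.14% (R1000), 1.81% (R4000) and 1.51% (parental line). Away from the TSS the order differs, with the parental line at 0.250% and R1000 at 0.165% at 5 kb upstream.

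Genes were then classed by the bases covered in 2 windows, the 5 kb upstream of the TSS, which is that of the study's own clustering, and 2 kb on both sides of the TSS, with at least 150 bp (3 bins of 50 bp) counted as covered. Upstream, 1827 of 22380 protein-coding genes (8.16%) were covered in R500 and 880 (3.93%) in R1000. Of the 1827, 1022 were lost (55.9%), 661 of them with 0 bp left, and 805 were kept. Only 75 genes were new, which is 0.365% of those not covered in R500, and 31 of them had 0 bp in R500. Around the TSS, 2976 genes (13.3%) were covered in R500 and 1548 (6.92%) in R1000. There 1544 were lost (51.9%), 987 with 0 bp left, 1432 were kept and 116 were new (0.598%). Of the kept genes 695 of 805 upstream and 1267 of 1432 around the TSS were covered over fewer bases in R1000, and 76 and 113 over more.

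The share of genes lost went with the amount of coverage. Upstream, 86.1% of the genes with 150 to under 300 bp in R500 were lost (543 of 631), 61.3% with 300 to under 600 bp, 38.3% with 600 to under 1000 bp and 9.54% with 1000 bp or more (33 of 346, 6.87 to 13.1%). Around the TSS the same shares were 87.1%, 68.6%, 34.8% and 9.13%. The shares lost by any group of genes are therefore to be read beside its coverage in R500.

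The lost genes with the widest upstream coverage in R500 and none in R1000 included regulators of signalling, channel genes and a homeobox gene. Heyl, a bHLH repressor and target of Notch signalling on chromosome 4, had 2048 bp in R500 and 0 bp in R1000, against 700 bp in parental cells, 1798 bp in R100 and 450 bp in R4000. Prdm8, a PR-domain regulator of transcription, had 350, 1300, 1400, 0 and 150 bp in the order parental, R100, R500, R1000, R4000, which is used from here on. Rgmb, a co-receptor for bone morphogenetic proteins, had 50, 1100, 1350, 0 and 250 bp. These 3 genes, chosen for their 0 bp in R1000, were covered more in R100 than in parental cells, and R4000 again held some coverage. Kcnc1, a voltage-gated potassium channel gene, had 300, 500, 1150, 0 and 0 bp upstream, and Cacna1b, which encodes the pore of N-type calcium channels, had 100, 350, 1050, 0 and 0 bp. Tlx1, a homeobox gene needed for the spleen, had 175, 575, 1075, 0 and 0 bp. These 3 genes, by contrast, were at 0 bp upstream in R4000 as well. Around the TSS Kcnc1 had 100 bp in R4000, and Tlx1 was kept, with 1000 bp in R500 and 150 bp in R1000. Aatk, an apoptosis-associated tyrosine kinase gene, went from 200 bp in R100 to 1200 bp in R500 and had 0 bp in R1000. Ggt1, whose product cleaves extracellular glutathione, had 1100 bp in R500 and 1200 bp in R100. Tbc1d16, which acts on Rab proteins, had 1400 bp and Ccdc136 1150 bp in R500.

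Around the TSS the widest loss was at Dbn1, the gene of the actin-binding protein drebrin, with 72, 1200, 2022, 0 and 500 bp in the 5 lines. Cacna1h, a T-type calcium channel gene, had 1650 bp in R500 and 0 bp in R1000. Kcnc1 had 1500 bp, Tbx1, a T-box gene of the pharyngeal arches, 1363 bp and Itgb4, the gene of integrin beta 4, 1350 bp in R500, all with 0 bp in R1000. Tbx1 was kept by its upstream window, with 2500 bp in R500 and 600 bp in R1000, so that its class depended on the window. Of the upstream lost genes, 676 of 1022 were covered in R100 (66.1%), 167 in parental cells (16.3%) and 114 in R4000 (11.2%). For the 805 kept genes these shares were 93.9%, 67.5% and 56.4%. Of all 22380 protein-coding genes, 2044 were covered upstream in R100, 815 in parental cells and 612 in R4000.

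The kept genes with the widest coverage were headed by the Hoxa cluster on chromosome 6. Hoxa9, a homeobox gene of posterior identity that is also used in blood progenitors, had 3162, 4338, 4500, 3650 and 2900 bp upstream. Hoxa13 had 3574, 3774, 3874, 3424 and 3324 bp, the narrowest range among the kept genes named here. Hoxa10 had 4450 bp in R500 and 3050 bp in R1000, Hoxa11 3887 and 2700 bp, and Hoxa3, listed under 2 gene identifiers with nearly the same start, 4250 and 3200 bp. These windows overlap within the cluster and share peaks, so that they are not separate observations. Outside the cluster, Cbx8, which encodes a PRC1 subunit that binds the mark, had 3933 and 3283 bp, and Atf3, a stress-induced transcription factor gene, 3950 and 3150 bp. Nkx2-3, a homeobox gene of spleen and gut, had 2850 and 2650 bp. Osr2, a zinc finger gene of palate and limb, was the exception, with slightly more in R1000 than in R500 and 2050, 2802, 2652, 2752 and 2050 bp over the 5 lines. Around the TSS Osr2 likewise had 3351 bp in R500 and 3451 bp in R1000. Sp9, a zinc finger gene of the limb bud, had 3782 and 3650 bp there, Id1, an inhibitor of E proteins, 3137 and 2837 bp, Hmx2, an inner ear homeobox gene, 3325 and 2875 bp and Hoxa11 3651 and 2700 bp.

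**Figure D3:**
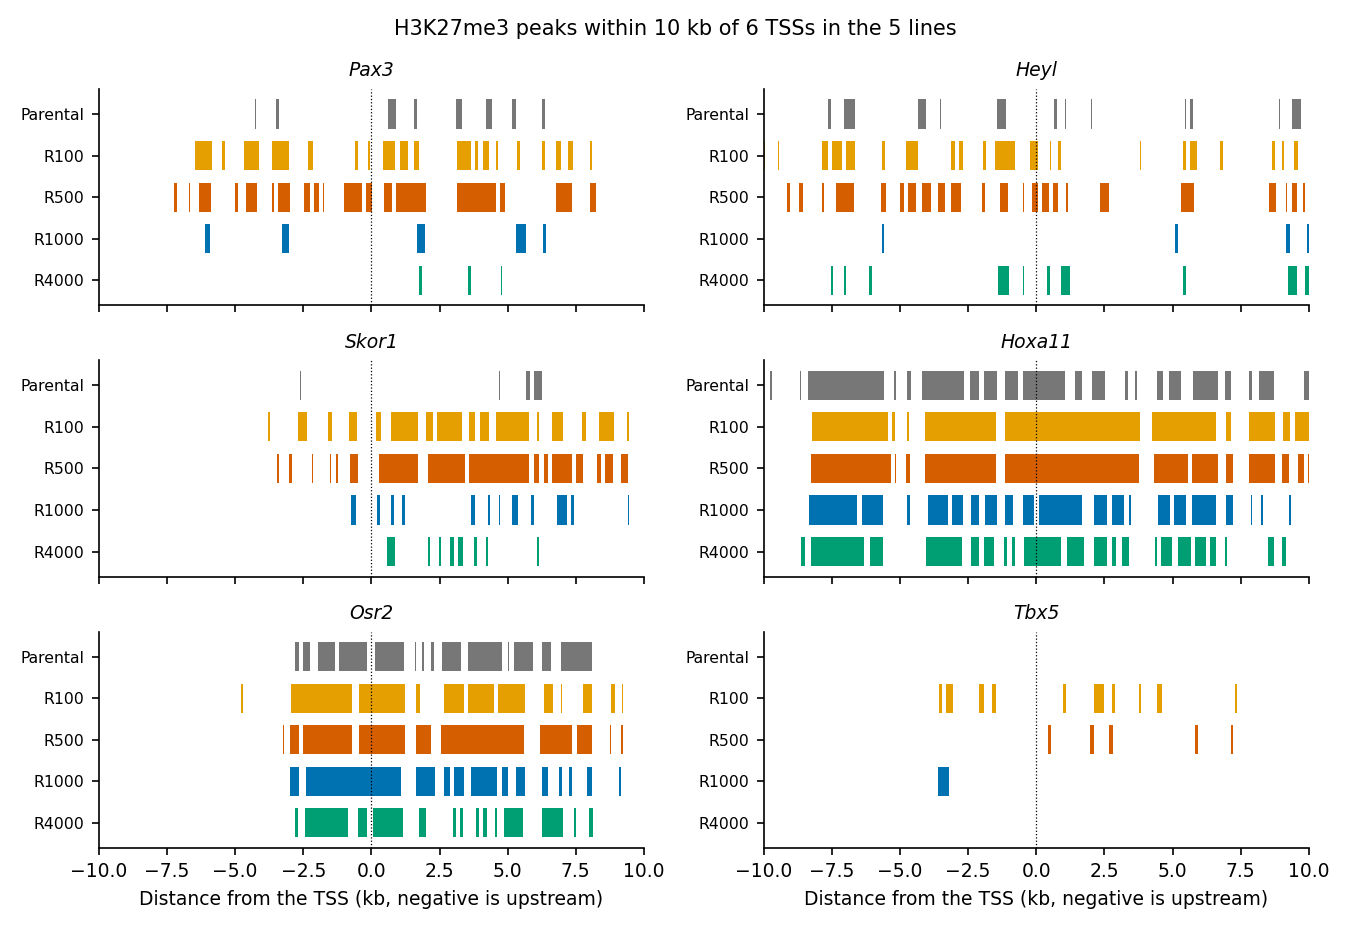
Peaks of the 5 lines within 10 kb of the TSS of Pax3, Heyl, Skor1, Hoxa11, Osr2 and Tbx5, drawn as blocks against the distance from the TSS (kb, negative is upstream). Around Pax3 and Heyl the R500 blocks are sparse in R1000. Around Hoxa11 most of the 12 R500 peaks meet R1000 peaks, which number 20, while some R500 peaks are lost. Around Osr2 the blocks sum to 9350 bp (R500) and 7350 bp (R1000), and at Tbx5 the only R1000 peak lies 3 to 4 kb upstream.

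Pax3 shows that loss, narrowing and new peaks met at 1 gene. Within 10 kb of its TSS, R500 had 18 peaks of 6750 bp together and R1000 5 peaks of 1150 bp. Parental cells had 8 peaks of 1200 bp, R100 19 peaks of 4850 bp and R4000 3 peaks of 250 bp. The R500 peak of 1400 bp was absent in R1000, which held a new peak of 350 bp at chr1:78188051-78188400, beside it. The gene remained kept by the rule, with 2291 bp upstream in R500 and 250 bp in R1000. Around Skor1 the 16 peaks of R500 summed to 7700 bp and the 12 of R1000 to 1550 bp. Around Heyl 23 peaks of 5050 bp stood against 4 peaks of 600 bp, of which that of 300 bp reached beyond 10 kb.

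The new genes had little coverage. Tbx5, a T-box gene of heart and forelimb, came first upstream with 0, 700, 0, 400 and 0 bp. Its other window ran the opposite way, with 122 bp in R500 and 0 bp in R1000 around the TSS, and within 10 kb R500 held 5 peaks of 600 bp together against the single R1000 peak of 400 bp. Trim9, a ubiquitin ligase gene of the brain, had 350 bp in R1000, 449 bp in R100 and 100 bp in R4000. Mphosph6, which encodes a protein of the RNA exosome, had 300 bp in R1000 and 50 bp in R100, and Phlda2, an imprinted gene of the placenta, 250 and 54 bp. The first 2 had therefore been covered in R100 over more bases than in R1000. The next genes had 200 bp in R1000, namely Cspp1, D15Ertd621e, Ehmt2, which encodes an H3K9 methyltransferase, Eif3d, a translation initiation factor gene, Enc1 and Epn3. The last of these were taken by alphabet from 12 genes with equal coverage. Around the TSS Mphosph6 had 300 bp, Enc1, the kinase gene Nuak1 and the ribosomal protein gene Rpl30 250 bp each, and the complement gene C2 200 bp, all with 0 bp in R500. C2 and Ehmt2 are neighbours read in opposite directions, and their windows overlap. Of the 75 new genes upstream, 31 were covered in R100 (41.3%), 12 in parental cells (16%) and 5 in R4000 (6.67%). Among all 22380 protein-coding genes the counts were 2044, 815 and 612.

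Groups of genes were read against the 55.9% of covered genes lost upstream and the 51.9% lost around the TSS. Among transcription factors of development, 33 of 40 Hox entries were covered upstream in R500, of which 8 were lost (24.2%, 12.8 to 41.0%) and 25 kept, none was new, and 36 had fewer bases in R1000. The largest differences were at Hoxc12, from 3050 to 850 bp, Hoxb8, from 2950 to 900 bp, and Hoxc5, from 3050 to 1050 bp. The lost members were Hoxa2, Hoxa4, Hoxb4, Hoxb6, Hoxd8, Hoxd9, Hoxd12 and Hoxd13, with Hoxd9 going from 1050 to 50 bp and Hoxd12 from 750 to 0 bp. Of 107 entries of other homeobox genes 56 were covered in R500, with 21 lost (37.5%, 26.01 to 50.6%) and 35 kept. Lhx1, a LIM homeobox gene of kidney and head, went from 3450 to 1177 bp and Barx1 from 2400 to 684 bp, while Shox2, with 900 and 950 bp, was the only entry with more in R1000. Around the TSS 9 of 33 covered Hox entries and 26 of 66 other homeobox entries were lost, and here too the only entry with more in R1000 was a homeobox gene, Vsx1, with 200 and 300 bp.

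The lower share lost among homeobox genes went with wider coverage in R500. With 1000 bp or more upstream, 2 of 49 Hox and other homeobox genes were lost (4.08%, 1.13 to 13.7%), against 9.54% of all protein-coding genes, and with 300 to under 600 bp all 13 were lost, against 61.3%. Around the TSS, 13 of 72 with 1000 bp or more were lost (18.1%, 10.9 to 28.5%), against 9.13% of all genes. With 600 to under 1000 bp, 7 of 10 were lost around the TSS (70%, 39.7 to 89.2%), against 34.8%. Upstream it was 7 of 20 in this class (35%, 18.1 to 56.7%), against 38.3%. The interval lay above the share of all genes with 300 to under 600 bp upstream (77.2 to 100%). Around the TSS it did so with 600 to under 1000 bp and with 1000 bp or more. In the other classes of coverage the interval included the share of all genes.

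The Sox, Fox, T-box and Gata factors gave different shares in the windows, with 16 of 26 lost upstream (61.5%) and 7 of 28 around the TSS (25%). Tbx2, a T-box gene of heart and limb, went from 2550 to 700 bp upstream and Foxc1 from 3450 to 2186 bp, Gata2, a factor of blood stem cells, went from 650 to 0 bp upstream and from 1200 to 350 bp around the TSS, and Tbx5 was the new member. Among the secreted Wnt, Fgf, Bmp and Gdf ligands 12 of 17 were lost upstream (70.6%, 46.9 to 86.7%) and 8 of 21 around the TSS (38.1%). Wnt10a went from 1911 to 139 bp and Wnt10b from 1100 to 100 bp upstream, and Fgf9 had more in R1000, 800 bp against 533 bp. Around the TSS, Wnt10a and Wnt10b were kept, with 500 of 2740 bp and 450 of 2320 bp left.

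**Figure D4:**
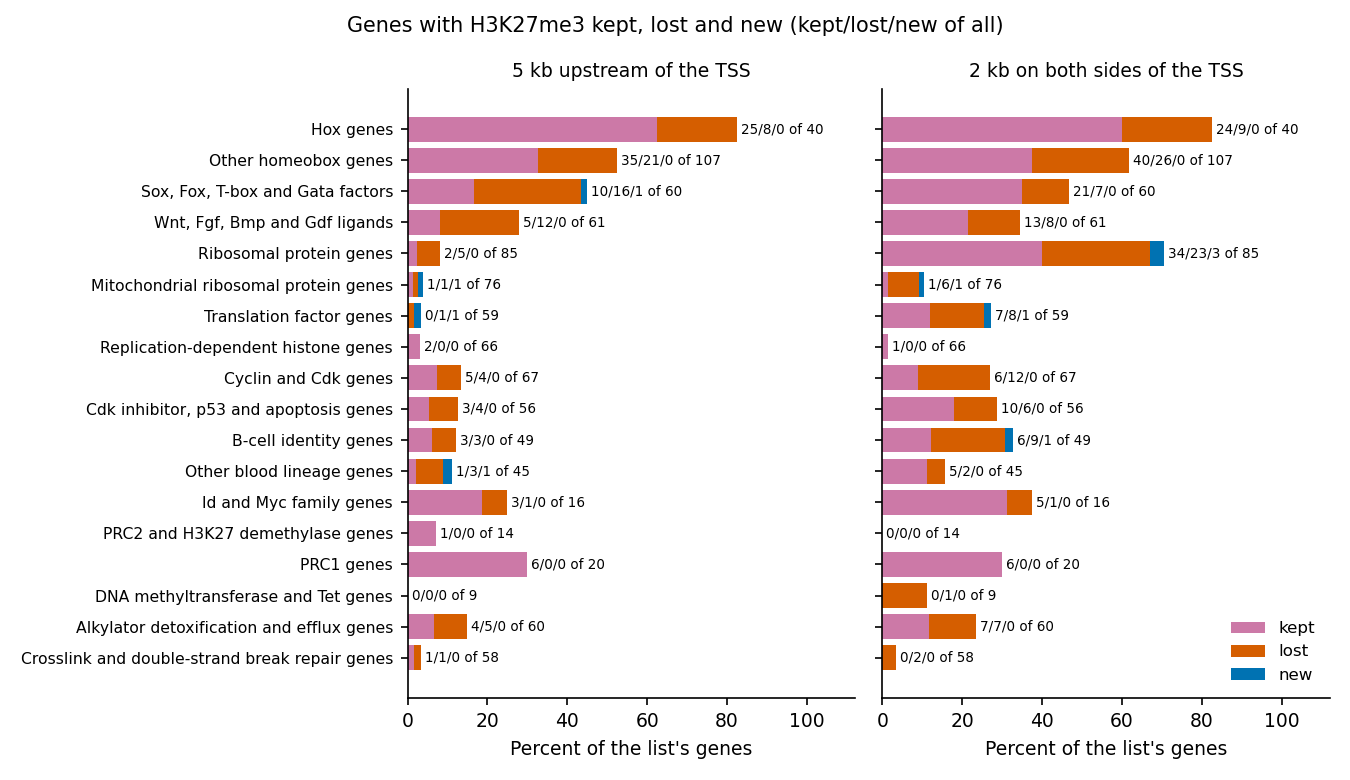
Percent of the genes of 18 lists that were kept, lost or new between R500 and R1000, upstream (left) and around the TSS (right), with the counts beside the bars. The Hox list is covered most in both windows, the ribosomal protein genes are covered around the TSS (34 kept, 23 lost, 3 new of 85) but not upstream (2, 5 and 0), and all 6 covered PRC1 genes are kept.

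Ribosomal protein genes were covered mostly in the 2 kb downstream of the TSS, since only 7 of 85 were covered in the 5 kb upstream in R500. Around the TSS 57 of 85 were covered in R500 and 37 in R1000, compared with 61 in R100, 42 in R4000 and 9 in parental cells. Of the 57, 23 were lost (40.4%, 28.6 to 53.3%), and 3 were new, Rps4x, Rpl30 and Rpl36al. Rps24 went from 700 to 0 bp, Rpl13 from 850 to 200 bp and Rpl27a from 900 to 250 bp, while Rpl31 had 1100 and 850 bp, and Rpl3 had more in R1000, 900 bp against 700 bp. With 300 to under 600 bp in R500, 9 of 27 ribosomal protein genes were lost (33.3%, 18.6 to 52.2%), against 68.6% of all protein-coding genes with this coverage (65.2 to 71.8%). The other classes of coverage had intervals that included the share of all genes. With 150 to under 300 bp 12 of 16 were lost (50.5 to 89.8%), against 87.1%. With 600 to under 1000 bp it was 2 of 11 (5.14 to 47.7%), against 34.8%, and with 1000 bp or more 0 of 3, against 9.13%. Most of these genes have processed pseudogenes of near-identical sequence, and how reads with several matches were placed is not given in the sources used here. Of the mitochondrial ribosomal protein genes 7 of 76 were covered around the TSS in R500 and 6 of them lost. Of 59 translation factor entries 15 were covered, of which 8 were lost, such as Eif1b from 500 to 100 bp and Eef1g from 400 to 0 bp, and 7 kept, among them Eif4a2 with 900 and 700 bp and Eef2 with 600 and 400 bp.

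The PRC1 genes showed no loss. All 6 that were covered upstream in R500 were kept, with Cbx2 at 1700 and 1100 bp, Rybp at 1600 and 900 bp, Pcgf2 at 1150 and 900 bp, Pcgf1 at 450 and 400 bp and Bmi1 at 206 and 156 bp, beside Cbx8. The interval on 0 of 6 reaches 39.0%, and 4 of the 6 genes had over 1000 bp in R500, where losses were rare in all genes. Of the 14 genes of PRC2 and the H3K27 demethylases Kdm6b alone was covered, over 600 bp in R500 and 500 bp in R1000.

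Genes of the cell cycle and of cell death were covered in small numbers. Around the TSS 12 of 18 covered cyclin and Cdk genes were lost (66.7%, 43.8 to 83.7%), such as Ccnd1 from 450 to 0 bp and Cdk6 from 300 to 0 bp, while Ccnd2, a cyclin of B cells, kept 2250 of 2851 bp and Ccno 1450 of 3101 bp. Upstream 4 of 9 were lost (44.4%, 18.9 to 73.3%), so that the share lay above that of all covered genes in 1 window only. Of the Cdk inhibitor, p53 and apoptosis genes 6 of 16 were lost around the TSS, Bok from 1150 to 100 bp among them, and 10 were kept, such as Trp73, the p53 relative, with 2050 and 1000 bp and Gadd45g with 1800 and 1050 bp. Upstream 4 of 7 covered genes of this list were lost (57.1%, 25.1 to 84.2%). Replication-dependent histone genes were almost free of peaks, with 2 of 66 covered upstream in both lines. Of the alkylator detoxification and efflux genes 5 of 9 were lost upstream and 7 of 14 around the TSS. Abcb1a, which encodes a drug efflux pump, went from 350 to 0 bp around the TSS, Mt1, a metallothionein gene, from 1450 to 400 bp, and Aldh1a2 from 2150 to 1900 bp. Of 58 entries for crosslink and double-strand break repair 2 were covered in R500 around the TSS, Xrcc5 and Mad2l2, and both were lost, while Ercc1 was kept upstream with 800 and 650 bp.

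At genes of B-cell identity coverage was narrow. Around the TSS 15 of 49 entries were covered in R500, of which 9 were lost (60%, 35.8 to 80.2%) and 6 kept, and Pou2af1 was new with 150 bp against 100 bp. Bcl11a went from 750 to 100 bp, and Ikzf1 and Myb each from 300 to 0 bp, while Cd24a kept 400 of 950 bp and Bcl6 600 of 850 bp. Among genes of other blood lineages 2 of 7 were lost around the TSS, Thy1 and Epor, and Tal1, a factor of stem cells and red cells, kept 1981 of 2381 bp. Upstream 3 of 6 covered B-cell identity entries and 3 of 4 covered genes of other blood lineages were lost. Of the defining markers of cell types, 3 of 10 for B cells were covered around the TSS in each line, with Pou2af1 in R1000 only. For T cells it was 1 of 9 in R500 and 0 in R1000, and for myeloid cells 0 of 7 in either line. Erythroid and megakaryocytic cells had 3 of 7 in R500 and 2 in R1000. Of all protein-coding genes 13.3% were covered in R500 and 6.92% in R1000. Peaks of this mark do not measure expression, and the labelled cell type was not checked with them.

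Genes named by the study were described one by one, whatever their class. Myc had 1100, 2546, 2496, 1550 and 1300 bp around the TSS, and upstream it went from 550 to 100 bp, which the rule calls lost. Reads from the transgene and the endogenous gene cannot be told apart in these lists. Id2, an inhibitor of E proteins, had 1407, 2457, 2957, 1557 and 2007 bp upstream, so that it was kept with R1000 below R4000. Tcf3, which encodes the E protein E2a, had 0, 200, 300, 0 and 0 bp around the TSS. Dnmt3b, a de novo DNA methyltransferase gene, had 0, 550, 250, 0 and 300 bp. In both windows Ezh2, Suz12, Mtf2, Trp53, Cdkn1a and Dnmt3a held at most 100 bp in R500 and R1000. The gene of PU.1, listed as Sfpi1, and Uty, Cdkn2a, which these cells lack, Bbc3, Dnmt3l, Romo1, Ghsr, Zfp605, Brsk1 and Ostn were at 0 bp in both windows of both lines.

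The lost, kept and new peaks were then looked up in the lists not used for the split. Kept peaks were found in R4000 for 50.8% (49.3 to 52.3%), in the parental line for 56.5% and in R100 for 85.6%. Lost peaks were found in R4000 for 5.72% (5.39 to 6.07%), in the parental line for 8.42% and in R100 for 30.3%, and 65.5% of them were in none of these 3 lists. Of the new peaks 4.79% were found in R4000 (4.20 to 5.45%), 8.75% in parental cells and 23% in R100, while 69.9% were in none. A peak absent from R500 and found in both R1000 and R4000, but in neither the parental line nor R100, was thus rare, with 83 of 4470 (1.86%). Width again went with these shares. Of the 28 lost peaks of 1000 bp or wider, 18 overlapped a peak in R4000 (64.3%, 45.8 to 79.3%), 19 in the parental line and all 28 in R100, and of the 615 kept peaks of this width 568 did so in R4000 (92.4%). Among peaks of 50 bp the shares in R4000 were 1.32% of the lost and 9.04% of the kept.

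**Figure D5:**
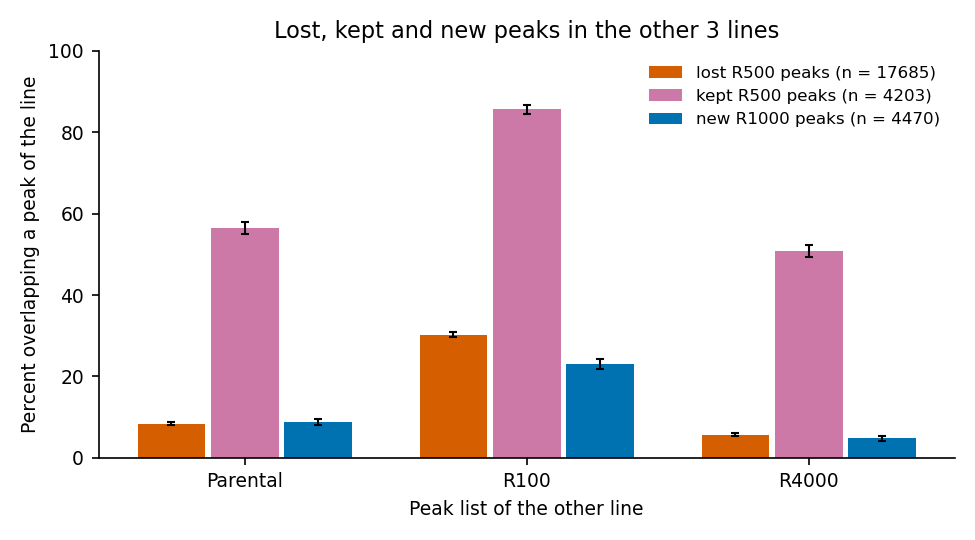
Percent of lost R500 peaks (n = 17685), kept R500 peaks (n = 4203) and new R1000 peaks (n = 4470) that overlap a peak of the parental line, R100 or R4000, with 95% Wilson intervals. Kept peaks stand highest in each list, and all 3 classes are highest in R100, the longest list.

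The classes also differed in base composition, read in 300 bp around each peak's centre. Median GC content was 51.3% for lost, 54.0% for kept and 48.3% for new peaks, against 41.8% for all bases of chromosomes 1 to 19 and X. CpGs were more frequent in kept peaks, with a median observed over expected ratio of 0.506, against 0.296 in lost and 0.289 in new peaks. A GC content of at least 50% with a ratio of at least 0.6 was met by 34.0% of kept, 17.9% of lost and 14.8% of new peaks. Part of this went with position and width. Within 2 kb of a TSS the shares were 41.6%, 36% and 29.1%, and for peaks of 1000 bp or wider they were 44.9% of kept and 32.1% of the 28 lost peaks. The promoters of lost and kept genes themselves, from 250 bp before to 50 bp after the TSS, had the same median GC content of 63.7%. Their median CpG ratio was 0.720 for lost and 0.763 for kept genes, and 64.5% and 68.1% met both thresholds. The E-box motif CAGGTG was sought on both strands, since E2a binds E-boxes. The palindromic E-box CAGCTG was sought likewise, and sites of these motifs cannot overlap each other. At least 1 of the motifs was present in 38.3% of lost, 35.6% of kept and 33.5% of new windows, and in 32.0% of all promoters of the same length. Of the windows printed above, widened to 300 bp, that in Skor1 held CAGCTG and that of the widest new region held CAGGTG, and the others held neither.

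The kept share was similar along the genome. It ran from 17.5% of R500 peaks on chromosome 1 to 22.7% on chromosome 15 among the autosomes, and was 14.1% on the X chromosome (21 of 149, 9.41 to 20.6%). The ratio of covered length was between 0.330 on chromosome 7 and 0.398 on chromosome 6, and 0.305 on the X chromosome. Each chromosome thus shared in the smaller list.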

How the data were processed

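H3K27me3 ChIP-seq was analysed in 5 lines. The 5 RRBS samples were not analysed here. The authors sequenced 50-bp reads on an Illumina HiSeq 2000, called peaks by Poisson statistics against input in windows tiling the genome, and deposited 1 list per line. The authors deposited chromosome, start and end of each peak in base pairs, and the lists carry no read counts or scores. The submitters' processing notes name Bowtie, without a version, and mm9. The threshold of the lists is not given in the sources used here.

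Lines were assigned from the sample titles, and repeated rows were dropped. All peaks fell within the chromosomes of NCBIM37. Positions were read as 1-based, and overlaps of at least 1 bp, covered bases and distances to the TSS of 37310 GENCODE genes were obtained with numpy 2.4.6 and pandas 2.3.3 under Python 3.11.15. Overlaps were checked on simulated peaks, for which each base was counted singly. Sequence was read with pysam 0.24.0 and samtools 1.23.1, and figures were drawn with matplotlib 3.10.9. The genome file holds no repeat masking, so a planned repeat share was not computed.

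Named genes were protein-coding, without Gm-numbered or Rik symbols. They were the 10 lost and 10 new genes with the widest upstream coverage and 0 bp in the other line, the 10 kept genes with the largest smaller value, 5 of each around the TSS, the members of 19 gene lists with the largest differences or the largest smaller value, and all genes the study names. Further list members were chosen after their values were seen. The members and lists were chosen with earlier results of these data known. Alternatives changed peak width, joining, chromosomes, list length, overlap, promoter window, minimum coverage and gene type. With 1 list per line no test was made, and the unknown depth limits each comparison.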

Additional observations from a re-analysis of the deposited data

How the results depend on the processing

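R1000 stayed below R500 in covered length under each alternative, at 0.253 to 0.443 times. The kept share of R500 peaks was 24.9% for peaks of at least 500 bp in both lists, 23% for at least 100 bp, 21.1% with peaks within 1000 bp joined, 37.7% with R500 reduced to its 9595 widest peaks, 10.1% with at least 50% of the peak covered and 34.9% with peaks within 500 bp counted. In the same order the new share of R1000 peaks was 11.8%, 33.3%, 48.2%, 52.3%, 50.5% and 24.9%. With autosomes only both shares stayed within the main interval. Since only peaks wide in both lists enter the first alternative, a wide R500 peak over narrow R1000 peaks counts there as lost.

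Over all 37310 genes, 1349 were lost, 1147 kept and 92 new upstream. With a window of 2 kb around the TSS 1805 were kept and 141 new. With at least 50 bp covered, 2191 were lost, 1847 kept and 465 new. With at least 300 bp, 700 were kept and 34 new. With 0 bp required in the other line, 862 were lost and 42 new. The other counts stayed within 1.5 times.

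In R4000, for peaks of at least 500 bp in all lists, 5.26% of lost, 43.1% of kept and 6.76% of new peaks were found. With at least 50% covered these were 2.69%, 18.9% and 4.16%, and with the reduced R500 list 12.8%, 56.8% and 5.80%. The kept share stood above the others in each. The cause of these shifts was not tested.

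No paired analysis was possible because each line has 1 list. Depth and signal height are unknown, so a lost peak cannot be told apart from a peak that missed the threshold of a shallower library.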
